A study of Mus musculus with 12 samples.

Results

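The S100 genes encode small calcium-binding proteins, and 10 of them were followed here over tongue tumours and normal tongue of mice: S100a8, S100a9, S100a1, S100a4, S100a6, S100a10, S100a11, S100a13, S100a14 and S100a16. Every array probe annotated to these genes was taken, which gave 1 probe per gene and 10 of the 25697 probes of the array. All 10 lay above background on at least 5 arrays and were among the 10787 genes tested. The genes were chosen by their log2 signals in tumour and normal tongue on these same arrays, and no threshold is stated for that choice. That difference is therefore given for these genes as a description, without a p-value.

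Gene expression was measured on 12 Illumina arrays with biotin-labelled cRNA, 1 array per tissue piece. The 7 tumours came from B6 mice given 4NQO (4-nitroquinoline 1-oxide, a carcinogen that damages DNA) at 200 µg/mL together with arecoline (an alkaloid of the areca nut) at 500 µg/mL. The 5 normal tongues came from B6 control mice given DMSO, the solvent. In both groups treatment lasted 8 weeks, a rest of 20 weeks followed, and the stated age was 8 months. The labels do not say whether each piece came from its own animal, so p-values measure the spread between pieces. A tumour carries both agents, and neither can be told apart from the other or from tumour growth itself. Whole tissue was used, and in such bulk samples a change in the number of cells of a type and a change in RNA per cell cannot be told apart.

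Between 14745 and 15388 probes were above background on each array (precision is limited by there being only 12 arrays). All values below are log2 signals, and differences are tumour minus normal on that scale. The labelled tissues were checked against marker genes. All 15 measured genes of skeletal muscle were lower in the tumours (median difference −3.68), and 8 of 11 genes of basal squamous epithelium were higher and 3 lower (median 1.71). Of all genes tested 32.5% were higher and 23.6% lower. Salivary gland genes had a mean signal of 10.66 on tumour 2 and 6.40 to 6.58 on the other tumours, against 13.23 on normal 1 and 6.91 to 7.47 on the other normals. Differences without these 2 pieces are given further on.

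S100 proteins carry a pair of EF-hand motifs that bind calcium, and most work as dimers that change shape when calcium enters a cell and then grip a partner protein. Inside cells the partners include annexins, myosins and calcium pumps. Some S100 proteins also leave the cell and act as alarm signals on the receptors TLR4 and RAGE. S100a8 and S100a9 together form calprotectin, which fills the cytosol of neutrophils and is made by keratinocytes under stress.

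Across the family the tumours differed from normal tongue in both directions. S100a8 and S100a9 were higher by 6.55 and 7.40, S100a11 by 1.56, S100a10 by 0.76 and S100a6 by 0.52. S100a1 was lower by −3.76 and S100a13 by −0.87. The differences of S100a4, S100a14 and S100a16 were −0.17, 0.18 and 0.27, each smaller than the SD between pieces of either group. In the fit across all probes 5 of the 10 genes passed the threshold as higher and 2 as lower, where 56.1% of all 10787 genes passed in either direction, and nothing is read from this count because the genes were listed with that contrast known. The tumour and normal values did not overlap for 6 of the 10 genes, against 37.9% of all genes. Of these 6, 4 were higher, against 21% of all genes, and 2 lower, against 16.9%. The median difference of the 10 genes was 0.40, against 0.07 for all genes. Nothing is read from the overlap or the median either, for the same reason.

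**Figure D1:**
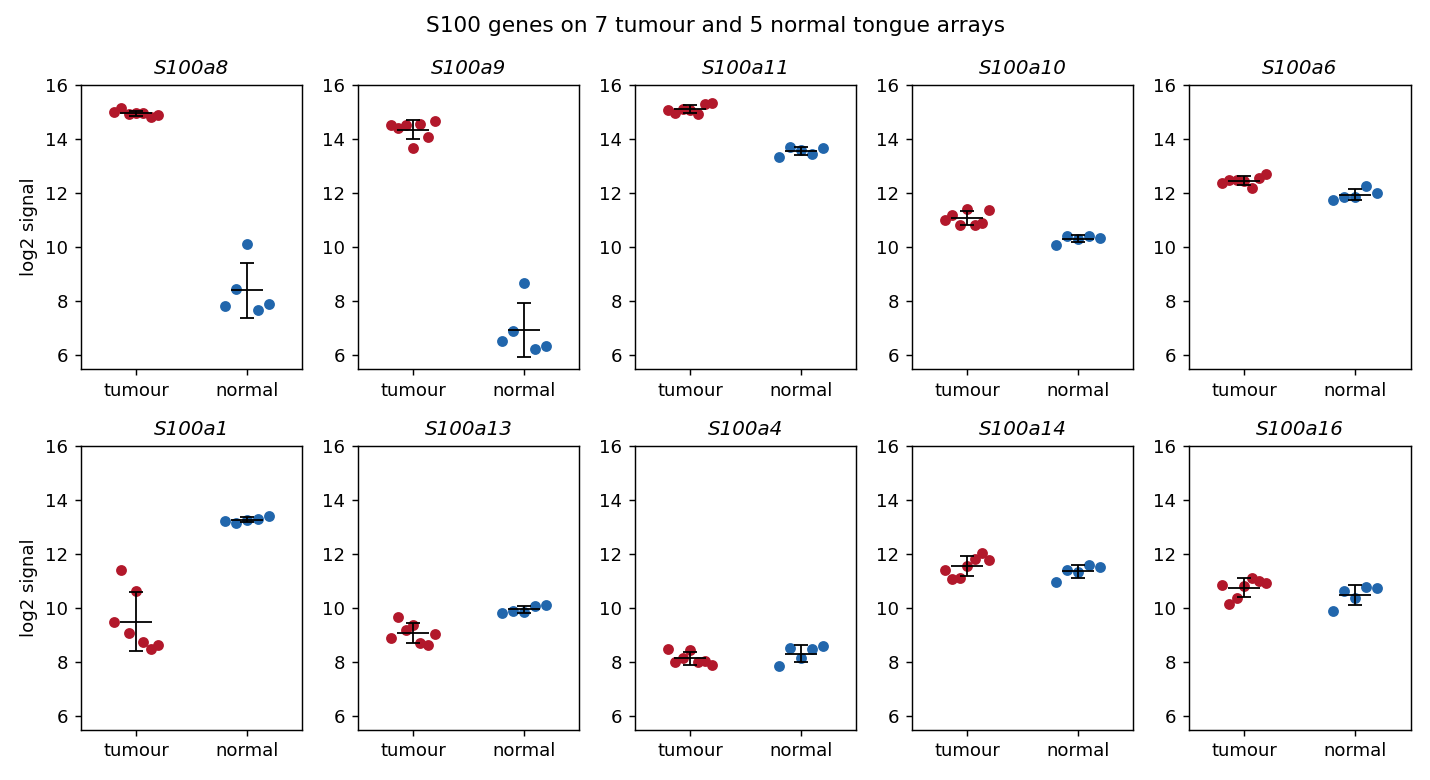
Log2 signal (vertical axis, the same range in every panel) of the 10 S100 genes on the 7 tumour arrays (red) and the 5 normal tongue arrays (blue). Points are arrays in order of their number, and the bar is the mean ± SD. S100a8 and S100a9 lie far apart between the groups, S100a1 is spread over the tumours from 8.50 to 11.39, and the values of S100a4, S100a14, S100a16 and S100a6 overlap.

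The calprotectin genes S100a8 and S100a9 are neighbours on chromosome 3. S100a8 (probe ILMN_2710905) had a lowest, median and highest tumour signal of 14.83, 14.97 and 15.14, and signals of 7.83, 8.47, 10.13, 7.69 and 7.89 on normals 1 to 5. S100a9 (probe ILMN_2803674) had 13.66, 14.50 and 14.68 over the tumours, and 6.53, 6.91, 8.69, 6.23 and 6.36 on normals 1 to 5. Every tumour was thus far above every normal for both genes, and normal 3 was the highest normal for both. The mean of S100a8 was 14.96 ± 0.10 (SD, n = 7) in tumours and 8.40 ± 1.01 (SD, n = 5) in normal tongue, a difference of 6.55 (SE 0.34). For S100a9 the means were 14.34 ± 0.36 (SD, n = 7) in tumours and 6.94 ± 1.01 (SD, n = 5) in normal tongue, a difference of 7.40 (SE 0.36). S100a9 was not above background on normals 4 and 5, so its difference depends on how faint signals are treated and came to 7.98 with a smaller background offset.

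The upstream sequences of the 3 S100 genes with the largest positive differences are shown here, because S100a8 and S100a9 sit side by side and, with S100a11, head the list of differences. Each is the 250 bases before the start site in RefSeq (build GRCm38.p6), written 5′ to 3′ on the strand of the gene. The windows are chr3:90668821-90669070 on the plus strand for S100a8, chr3:90695722-90695971 on the minus strand for S100a9 and chr3:93520246-93520495 on the plus strand for S100a11. Capitals mark matches on either strand to TATAAA (the TATA box), TTNNGNAA (a loose form of the site bound by C/EBP factors) and TGANTCA (the AP-1 site).
S100a8: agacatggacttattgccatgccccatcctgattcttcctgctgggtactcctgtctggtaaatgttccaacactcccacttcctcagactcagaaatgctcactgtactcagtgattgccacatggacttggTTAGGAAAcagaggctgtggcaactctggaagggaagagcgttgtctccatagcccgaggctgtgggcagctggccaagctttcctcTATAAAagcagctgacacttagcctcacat
S100a9: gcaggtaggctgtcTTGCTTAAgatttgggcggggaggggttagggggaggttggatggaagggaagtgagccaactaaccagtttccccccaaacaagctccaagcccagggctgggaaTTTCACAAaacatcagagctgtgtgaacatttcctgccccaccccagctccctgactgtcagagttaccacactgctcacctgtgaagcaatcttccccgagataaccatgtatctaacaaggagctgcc
S100a11: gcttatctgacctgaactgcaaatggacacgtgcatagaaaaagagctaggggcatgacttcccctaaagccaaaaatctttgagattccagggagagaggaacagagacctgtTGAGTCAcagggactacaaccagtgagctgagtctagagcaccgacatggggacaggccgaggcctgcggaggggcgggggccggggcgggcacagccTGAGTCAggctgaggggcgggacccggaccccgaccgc
The S100a8 window held 1 match to TATAAA, starting 30 bases before the start site, and 1 to TTNNGNAA. The S100a9 window held 2 matches to TTNNGNAA and none to TATAAA. The S100a11 window held 2 matches to TGANTCA, starting 136 and 38 bases before the start site, and none to the other 2 motifs. Of the 32851 windows of this length in the RefSeq table, 12.4% held TATAAA, 36.8% held TTNNGNAA and 6.75% held TGANTCA. A match describes letters only. Of the 10 genes 8 had a window in the table, and S100a10 and S100a14 had none there.

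Tumour signals of S100a8 and S100a11 lay at the bright end of the arrays. On each tumour array S100a8 was within 0.20 to 0.51 of the brightest probe and S100a11 within 0 to 0.42. Whether such signals still follow the amount of RNA was not tested, and the small spread of S100a8 over the tumours (SD 0.10) was measured in that range.

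Over the 7 tumours S100a8 and S100a9 did not move together in a way that passed a test. Their Pearson r was 0.08 and their Spearman rho −0.16 (exact permutation, two-sided, adjusted p = 0.93 and p = 0.809 over the 10 pairs examined). Without tumours 2 and 6, the farthest from the median of S100a8, r was −0.41. The mean of both genes gave r = 0.43 and rho = 0.32 with the mean signal of 14 neutrophil markers (exact permutation, adjusted p = 0.821 and p = 0.711), and r = −0.08 without tumours 4 and 6. With the stress keratins Krt6a, Krt6b, Krt16 and Krt17 it gave r = −0.24 and rho = −0.64 (exact permutation, adjusted p = 0.93 and p = 0.333), and r = −0.77 without tumours 4 and 6. The sign of this r turned on the deposited values (0.30), under cyclic loess (0.18) and without tumour 4 alone (0.12), and none of these passed the test. The order of the tumours thus followed neither list in a way that passed the test. For the keratins the test had little variation to work with. Krt6b, Krt16 and Krt17 reached 15.22, 15.21 and 15.17 in tumours, where the brightest probe of each array was at 15.34. The mean of the keratins spanned only 14.28 to 14.57 over the tumours.

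Markers of 3 kinds of cell that can hold calprotectin were set beside these values. Of 27 listed neutrophil markers 25 were on the array, and 14 were above background on at least 5 arrays and so measured. Of these 14, 9 were higher in tumours and 5 not called (median 1.00), against 32.5% of all genes higher. Cxcr2 and Stfa2 were above background on no normal, so they entered through the tumours alone and could not have come out lower. The mean signal over the 14 markers was 7.85 to 9.44 in tumours and 6.96 to 7.25 in normal tongue. Lcn2, a neutrophil granule protein that epithelium also makes, rose by 3.37, and the formyl peptide receptor Fpr2 by 2.55. The chemokine receptor Cxcr2, a defining neutrophil marker, was at 6.47 to 8.07 in tumours and below background on all 5 normals. The stress keratins, made by keratinocytes of wounded epithelium, were higher in 4 of 4 cases, against 32.5% of all genes (median 1.28). Their mean signal was 14.28 to 14.57 in tumours and 13.02 to 13.21 in normal tongue. A further probe of Krt6b gave 2.90, against 0.84 on the brightest probe used here, and a further probe of Krt6a gave 1.70, against 1.71. Of 10 macrophage and monocyte markers 1 was higher, 2 lower and 7 not called (median −0.12), against 32.5% of all genes higher and 23.6% lower. The co-receptor Cd14 was the one higher, while Cd163, which clears haemoglobin, fell by 2.93 and Mrc1, a mannose-binding receptor, by 1.71. What part any of these cell types has in the calprotectin signal was not tested.

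Normal tongue 3 differed from the other normals in the calprotectin genes and in the cytokine genes Cxcl1 and Il1b. There S100a8 was 10.13 and S100a9 8.69, against at most 8.47 and 6.91 on the other normals. On the same array the neutrophil-attracting chemokine Cxcl1 was 9.18, against at most 6.77 on the other normals, and interleukin-1β (Il1b) was 8.29, against at most 6.90. The Cxcl1 signal of normal 3 lay above that of tumour 4 (9.07). Other inflammatory genes differed less there. Il1a (8.10, against at most 7.98) and Osm (6.70, against at most 6.48) were highest on normal 3. Tnf (6.10) and Ccl4 (6.25) were too, but below background on every normal. Saa3 (6.55, against 6.67 on normal 4) and Ccl3 (5.90, below background) were not. The neutrophil genes named here were not of a kind on that array. Normal 3 was the highest normal for Fpr2 (6.64, against at most 6.30), where it was the only normal above background, for Mmp9 (7.26, against at most 7.10) and for Stfa1 (9.28, against at most 8.94). It was not the highest for Cxcr2 (6.06, below background), Lcn2 (7.35) or Stfa2 (6.25, below background). The mean of the 14 neutrophil markers was 7.22 on normal 3, second to 7.25 on normal 1, and the part of neutrophils in the values of normal 3 was not tested. Without normal 3 the difference was 6.99 for S100a8 and 7.83 for S100a9.

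**Figure D2:**
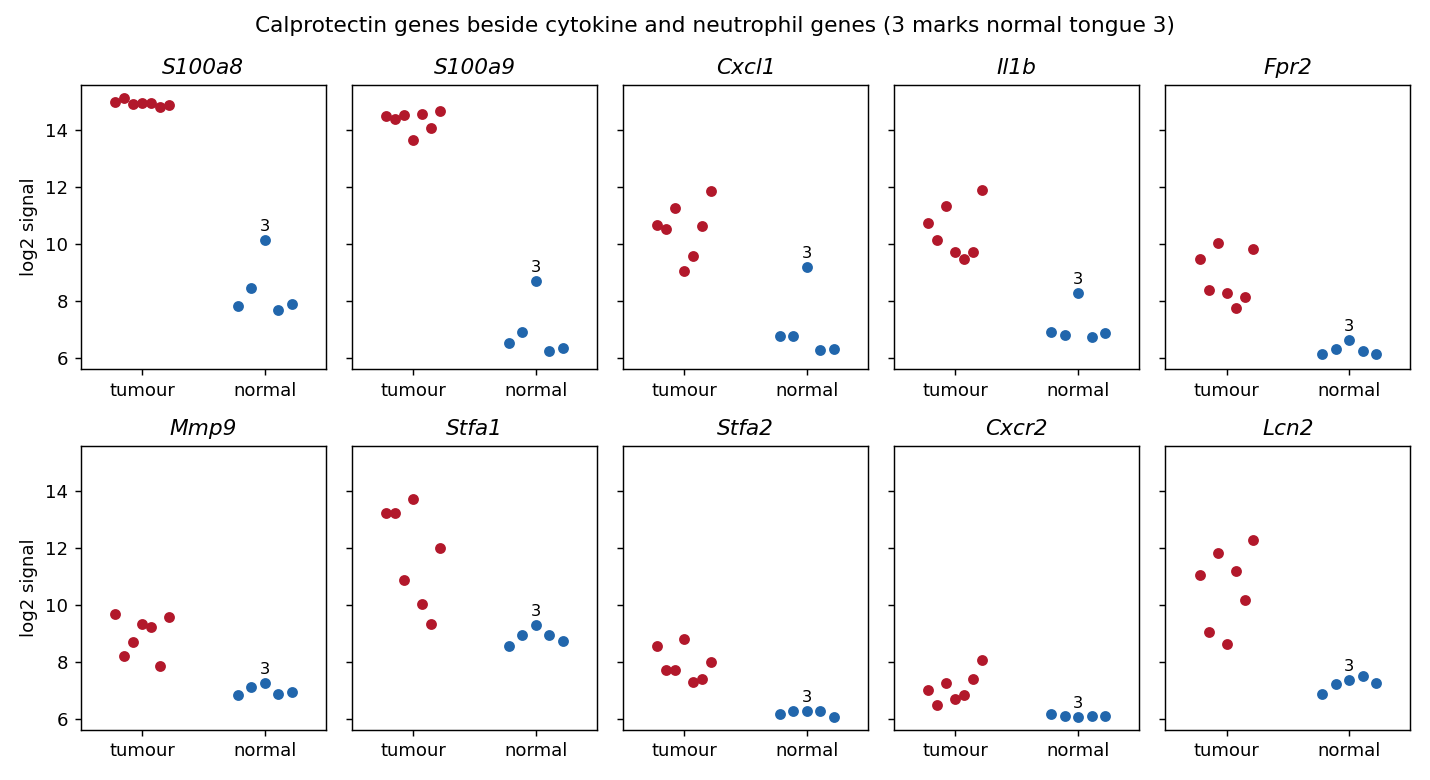
Log2 signal (vertical axis) of S100a8, S100a9, the cytokine genes Cxcl1 and Il1b and the 6 named neutrophil genes on the 7 tumour arrays (red) and the 5 normal arrays (blue), 1 point per array. The point marked 3 is normal tongue 3, which is the highest normal for S100a8, S100a9, Cxcl1 and Il1b (10.13, 8.69, 9.18 and 8.29) and for Fpr2, Mmp9 and Stfa1 (6.64, 7.26 and 9.28), and not for Stfa2, Cxcr2 and Lcn2.

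S100a11 and S100a10 are known for binding annexins. S100a11 (probe ILMN_2883392), which binds annexin A1, had a lowest, median and highest tumour signal of 14.93, 15.07 and 15.34. On normals 1 to 5 it was 13.34, 13.72, 13.61, 13.44 and 13.67. The groups were well apart, with means of 15.11 ± 0.15 (SD, n = 7) in tumours and 13.55 ± 0.16 (SD, n = 5) in normal tongue and a difference of 1.56 (SE 0.09). RefSeq lists an S100a11 pseudogene on another chromosome, and whether the probe reads it too was not tested.

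S100a10 (probe ILMN_1256702) pairs with annexin A2 at the cell membrane and is unusual in the family for having lost calcium binding. Its lowest, median and highest tumour signals were 10.83, 11.01 and 11.41, and normals 1 to 5 had 10.09, 10.41, 10.32, 10.43 and 10.33. The lowest tumour was above the highest normal by a small margin. The difference was 0.76 (SE 0.12), and 0.40 when the arrays were centred on 9 reference genes. Of these 9, 7 were themselves called higher in the tumours and 1 lower (median 0.57), against 32.5% and 23.6% of all genes.

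Annexins changed in both directions. Annexin A1 (Anxa1) rose by 3.19 (SE 0.21, limma adjusted p = 1.26e-07), to 12.21 ± 0.50 (SD, n = 7) in tumours against 9.02 ± 0.15 (SD, n = 5) in normal tongue. Annexin A2 (Anxa2) rose by 1.14 (SE 0.09, limma adjusted p = 5.20e-07), to 14.90 ± 0.10 (SD, n = 7) in tumours against 13.76 ± 0.21 (SD, n = 5) in normal tongue. Anxa1 and Anxa2, the annexins named above for S100a11 and S100a10, were thus higher alongside them. Annexin A6 (Anxa6) fell by 2.35 (SE 0.25, limma adjusted p = 4.57e-06), and annexin A11 (Anxa11), which binds S100a6, fell by 0.43 (limma adjusted p = 0.0362), a call that a further probe did not share (difference −0.09) and that was lost in 14 of 22 alternatives, among them those without any 1 of tumours 1 to 5 or of the normals. Anxa5 had a difference of 0.13 and was not called. Of the 5 annexins 2 were higher and 2 lower, against 32.5% and 23.6% of all genes.

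Over the tumours S100a11 and Anxa1 gave r = 0.93 and rho = 0.86 (exact permutation, two-sided, adjusted p = 0.0225 and p = 0.0794). Without tumours 6 and 7, the highest in both, r was 0.80. This relation depended on the scaling of the arrays: on the deposited values without further normalization r was 0.25 (exact permutation, adjusted p = 0.925), and under cyclic loess 0.62 (exact permutation, adjusted p = 0.408). The call was also lost without tumour 2, 5 or 7 (r = 0.92, 0.91 and 0.90). S100a10 and Anxa2 gave r = 0.23 and rho = −0.18 (exact permutation, adjusted p = 0.93 and p = 0.809), with r = −0.50 without tumours 4 and 7. Anxa2 spanned only 14.82 to 15.10 over the tumours, where the brightest probe of each array was at 15.34.

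S100a1 is the S100 protein of striated muscle, where it binds the calcium release channel Ryr1 and the calcium pump SERCA. Its signal (probe ILMN_1225602) on tumours 1 to 7 was 9.48, 11.39, 9.07, 10.61, 8.76, 8.50 and 8.65. Normals 1 to 5 had 13.21, 13.14, 13.24, 13.28 and 13.39. The normals lay close together, while the tumours were widely spread and tumours 2 and 4 stood highest. The mean was 9.49 ± 1.10 (SD, n = 7) in tumours and 13.25 ± 0.09 (SD, n = 5) in normal tongue, a difference of −3.76 (SE 0.45).

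S100a1 followed the other muscle genes over the tumours. With the mean signal of 15 muscle genes it gave r = 0.99 and rho = 0.86 (exact permutation, two-sided, adjusted p = 0.0109 and p = 0.0794). Without tumours 2 and 4 r was 0.89 over 5 tumours. That mean was 12.59 in tumour 2 and 11.13 in tumour 4, and 8.45 to 9.99 in the other tumours, against 13.47 to 13.90 in normal tongue. The call, though not the value (r = 0.97), was lost without tumour 2. The 5 genes most like S100a1 by Pearson r over the 7 tumours were Smtnl1 (1.00), Fabp3 (1.00), Eno3 (1.00), Sypl2 (1.00) and Gyg (0.99), given as a description.

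The muscle partners of S100a1 fell as well. Ryr1 fell by 4.18 (SE 0.46, limma adjusted p = 6.58e-06), with −1.19, −4.09 and −3.82 on its further probes. The fast-muscle pump Atp2a1 fell by 3.30 (limma adjusted p = 0.00128) and titin (Ttn) by 4.20 (limma adjusted p = 7.87e-05). The pump Atp2a2, found in slow muscle and in other cells, fell by 1.22 (limma adjusted p = 7.42e-05). Ryr1 in tumour 2 (10.66) and tumour 4 (9.85) was higher than in the other tumours, as S100a1 was.

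S100a13 helps to export fibroblast growth factor 1 and interleukin-1α from cells by a route without a signal peptide. Its signal (probe ILMN_2987984) on tumours 1 to 7 was 8.90, 9.67, 9.19, 9.36, 8.71, 8.64 and 9.05, and 9.83, 9.90, 9.85, 10.06 and 10.09 on normals 1 to 5. All tumours were below all normals, and tumours 2 and 4 were again the highest tumours. The difference was −0.87 (SE 0.16). Of its cargoes, Fgf1 fell by 1.91 (SE 0.24, limma adjusted p = 1.96e-05), with 8.16 in tumour 2 and at most 6.92 in the other tumours. Il1a rose by 1.33 (SE 0.18, limma adjusted p = 4.43e-05). A further probe of Fgf1 gave −0.54.

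S100a1 and S100a13 stand head to head on chromosome 3, with S100a1 on the minus strand and S100a13 on the plus strand. Their windows of 250 bases before the start site, chr3:90514331-90514580 and chr3:90514185-90514434 in GRCm38.p6, share 104 bases. Neither window held a match to TATAAA, TTNNGNAA or TGANTCA.

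**Figure D3:**
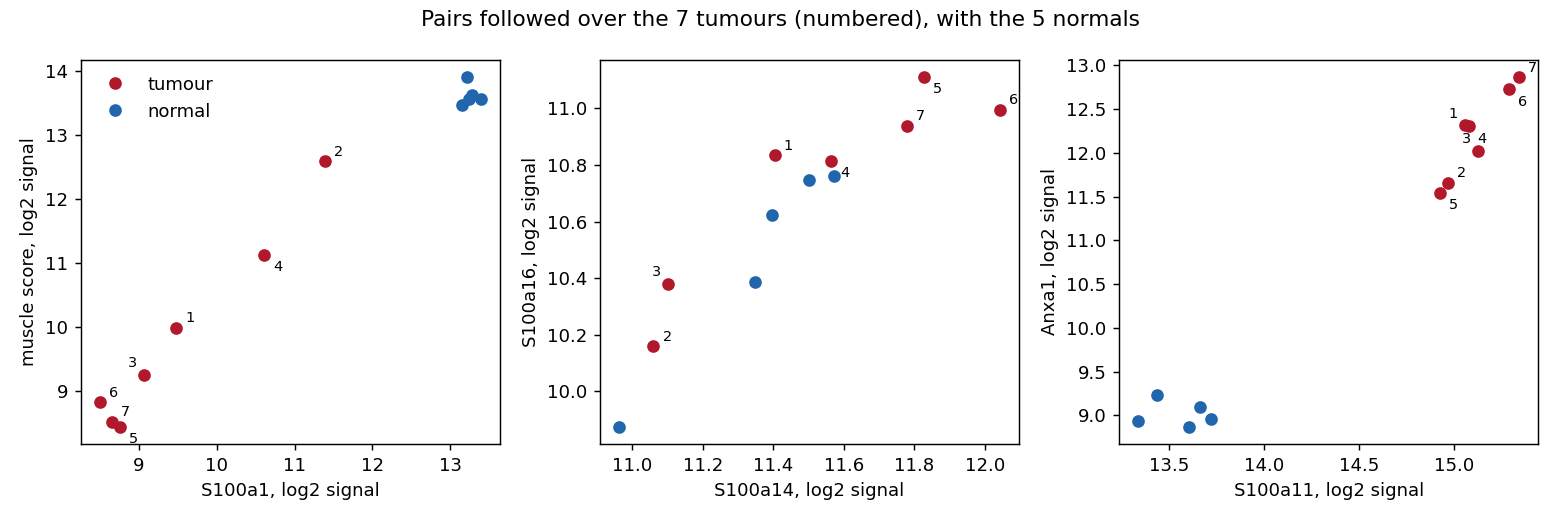
Log2 signals of 3 pairs on the 7 tumour arrays (red, numbered) and the 5 normal arrays (blue): S100a1 against the muscle score (the mean signal of 15 muscle genes), S100a14 against S100a16, and S100a11 against Anxa1. Over the tumours alone r was 0.99, 0.91 and 0.93, and tumours 2 and 4 are the highest in the muscle panel.

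S100a14 and S100a16, neighbours on chromosome 3, are made largely in epithelia. S100a14 (probe ILMN_2779858) was 11.40, 11.06, 11.10, 11.56, 11.83, 12.04 and 11.78 on tumours 1 to 7, and 10.96, 11.40, 11.35, 11.57 and 11.50 on normals 1 to 5. S100a16 (probe ILMN_1220521) had a lowest, median and highest tumour signal of 10.16, 10.83 and 11.11, and 9.87, 10.62, 10.39, 10.76 and 10.75 on normals 1 to 5. The groups overlapped for both genes. The differences were 0.18 (SE 0.17) for S100a14 and 0.27 (SE 0.19) for S100a16. Under centring on reference genes both turned to the other side of 0 (−0.19 and −0.07), and under cyclic loess S100a14 did (−0.02).

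Over the tumours S100a14 and S100a16 varied together, with r = 0.91 and rho = 0.93 (exact permutation, two-sided, adjusted p = 0.0109 and p = 0.0675), and r was 0.94 without tumours 2 and 6. Tumours 2 and 3 were the lowest and tumours 5 and 6 the highest for both. The call was lost without tumour 2 (r = 0.89) or tumour 7 (r = 0.91), each leaving 6 tumours. The values of the 5 normals had the same order of extremes, with normal 1 lowest and normal 4 highest for both. S100a14 did not follow the mean of 11 genes of basal squamous epithelium (r = −0.14, rho = −0.39, exact permutation, adjusted p = 0.93 and p = 0.659), and without tumours 2 and 6 r was 0.14. The 5 genes with the highest r to S100a14 over the 7 tumours were Mrgbp (0.98), Nomo1 (0.98), Barhl1 (0.98), Lcn4 (0.98) and Reep2 (0.98). Those of S100a8 were Shisa4 (0.99), Mfn1 (0.97), Ctsf (0.97), Acadm (0.97) and Nrip3 (0.96), and those of S100a9 were Tspyl1 (0.98), Pygo2 (0.96), Shoc2 (0.96), Amz1 (0.96) and Suz12 (0.95). The lists of the calprotectin genes share no gene, and these values describe the closest of 10787 genes over 7 points.

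S100a6, or calcyclin, is found in proliferating cells and fibroblasts and binds Cacybp and Sugt1. Its lowest, median and highest tumour signals (probe ILMN_2712120) were 12.18, 12.47 and 12.72, and the normals had 11.76, 11.85 and 12.25. Tumour 5 (12.18) was below normal 4, and the other tumours were above all normals. The difference was 0.52 (SE 0.10). It was 0.27 under cyclic loess and 0.10 under centring on reference genes, and neither passed the threshold. Centring on reference genes moved the median of all genes to −0.34, and relative to that median S100a6 stood at 0.43, close to its 0.46 in the fit reported here. Cacybp had a difference of 0.19 and was not called. Sugt1 had 0.24 (limma adjusted p = 0.0391), a call lost without any 1 of normals 1 to 4 or of tumours 5 and 6 and with same-numbered pieces as a block (0.20), and its direction turned to −0.19 under centring on reference genes.

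S100a4, known from work on metastasis and made by fibroblasts and macrophages, binds the non-muscle myosin Myh9. It had a lowest, median and highest tumour signal (probe ILMN_2731901) of 7.88, 8.03 and 8.49, and 7.85, 8.50, 8.15, 8.48 and 8.58 on normals 1 to 5. The groups overlapped fully, and the difference was −0.17 (SE 0.15). Myh9 rose by 1.27 (SE 0.12, limma adjusted p = 2.22e-06), to 12.31 ± 0.28 (SD, n = 7) in tumours against 11.03 ± 0.07 (SD, n = 5) in normal tongue. With the mean of 10 macrophage and monocyte markers S100a4 gave r = −0.02 and rho = 0.04 over the tumours (exact permutation, adjusted p = 0.966 and p = 0.963), and r = 0.50 without tumours 1 and 4. With 10 fibroblast and matrix genes it gave r = 0.34 and rho = 0.61 (exact permutation, adjusted p = 0.852 and p = 0.333). Without tumour 4 the second pair reached r = 0.85 (exact permutation, adjusted p = 0.0278), and without tumours 1 and 4 r was 0.86. Without tumour 1 alone r was −0.11 (exact permutation, adjusted p = 0.917), and without tumour 7 it was 0.15. The value of this pair thus depended on which tumour was left out.

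Normal 1, the piece rich in salivary gland genes, had the lowest normal signal for S100a4, S100a6, S100a10, S100a11, S100a13, S100a14 and S100a16. Tumour 2, the tumour rich in them, had the lowest tumour signal for S100a14 and S100a16. Normal 1 also had the lowest normal mean for basal (10.72) and differentiated (11.99) squamous epithelium and the highest for skeletal muscle (13.90). Tumour 2 had the highest tumour mean for muscle (12.59). The parts of gland, muscle and epithelium in these values cannot be told apart and were not tested. Without both pieces the differences were 6.38 for S100a8, 7.28 for S100a9, 1.53 for S100a11, 0.68 for S100a10, 0.48 for S100a6, −4.09 for S100a1, −1.003 for S100a13, −0.26 for S100a4, 0.16 for S100a14 and 0.22 for S100a16. The value of S100a4 over all pieces was −0.17, so it moved by over 1.5 times, and it was called in neither case.

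**Figure D4:**
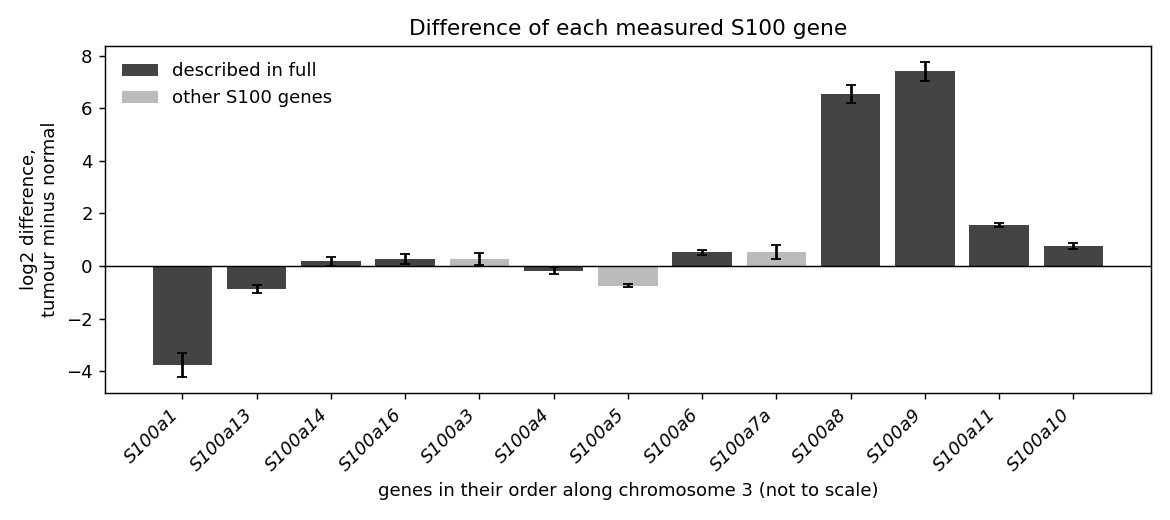
Difference in log2 signal, tumour minus normal (vertical axis), of the 13 S100 genes of chromosome 3 that were above background, in their RefSeq order along the chromosome without scale. Bars start at 0 (dark for the 10 genes described in full, light for other S100 genes) and whiskers are the standard error. The largest positive differences, 7.40 and 6.55, belong to the neighbours S100a9 and S100a8, and the largest negative one, −3.76, to S100a1, the first in the order.

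The rest of the family on the array is given as values only, since its genes were left off the list with the same results known. S100a7a, the mouse relative of psoriasin, had a lowest, median and highest signal of 10.84, 12.11 and 12.32 in tumours and 10.56, 11.58 and 11.67 in normal tongue, a difference of 0.54 (SE 0.26). It lies next to S100a8 on chromosome 3, and its difference was far smaller. S100a3 had a difference of 0.28 (SE 0.22) with overlapping groups. S100a5 was above background on 0 of 7 tumours and on 5 of 5 normals, at least 1.51-fold lower in the tumours. S100b, a Schwann cell and adipocyte gene, and S100g were not above background on any array. S100pbp, whose product binds S100P in human cells and is no S100 protein, had a difference of 0.39 and 0.33 on its 2 probes. Of the fused S100 proteins of the cornified layer, which carry an S100 domain on a long repeat, 3 were measured, with a median difference of −0.58.

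The receptors for secreted S100 proteins were measured for 7 of 9 listed genes, of which 5 were higher and 1 lower, against 32.5% and 23.6% of all genes (median 0.51, against 0.07 for all genes). Cd14, the co-receptor that hands ligands to TLR4, rose by 1.73 (SE 0.28, limma adjusted p = 1.73e-04). Its signal was 8.84 to 10.47 in tumours and 7.67 to 7.93 in normal tongue. Ly96, the MD-2 subunit of the TLR4 complex, rose by 1.04 (SE 0.07, limma adjusted p = 1.11e-07), with 9.24 to 9.51 in tumours and 8.31 to 8.47 in normal tongue. Tlr4 itself rose by 0.51 (SE 0.15, limma adjusted p = 0.00911), a call lost with same-numbered pieces as a block (0.53, limma adjusted p = 0.069) and under centring on reference genes (0.11). The groups overlapped for Tlr4 and were apart for its co-receptors.

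RAGE (Ager) had a difference of 0.05 (SE 0.08) and was near background, above it on 6 of 7 tumours and 4 of 5 normals. Mcam, a cell adhesion molecule that binds S100A8 and S100A9 on human tumour cells, rose by 0.86 (SE 0.13, limma adjusted p = 1.12e-04), with 0.59 and 0.61 on further probes. Alcam fell by 0.41 (limma adjusted p = 0.00707). Neuroplastin (Nptn), a receptor for S100A8 in human keratinocytes, had 0.24 (limma adjusted p = 0.0475), a call that was lost in 17 of 22 alternatives, with −0.027 under cyclic loess and −0.20 under centring on reference genes. Bsg and Cd36 did not pass the filter on dim probes.

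Of 17 listed genes known to be induced through TLR4 and RAGE, 14 were measured. Of these 14, 13 were higher, with a median of 1.75, against 32.5% of all genes higher. Ccl3, Ccl4, Cxcl2 and Cxcl5 were above background on no normal. They passed the filter on dim probes through the tumours alone and could not have come out lower, so their part of the count is a description. The acute-phase protein Saa3 rose by 4.69 (SE 0.56, limma adjusted p = 1.45e-05), with 9.73 to 13.51 in tumours and 6.46 to 6.67 in normal tongue. The chemokine Ccl4 was at least 9.66-fold higher on its brightest probe (limma adjusted p = 2.29e-06), while a further probe gave a log2 difference of 1.43. Ccl3 was at least 3.34-fold higher. Cxcl1 rose by 3.45 (SE 0.55, limma adjusted p = 1.62e-04), Il1b by 3.30 (SE 0.43, limma adjusted p = 3.14e-05) and Nfkbiz by 2.07 (limma adjusted p = 2.52e-06). Neutrophils make several of these genes too, and 9 of 14 measured neutrophil markers were higher in the same tumours, a part that was not tested.

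Of 15 measured upstream regulators of S100a8 and S100a9, 10 were higher and 5 not called (median 0.74), against 32.5% of all genes higher. The list holds factors and cytokines and does not separate those that raise these 2 genes from those that lower them. Hif1a, the hypoxia factor, rose by 2.29 (SE 0.28, limma adjusted p = 1.60e-05) and oncostatin M (Osm) by 1.43 (limma adjusted p = 0.00307). The AP-1 subunit Junb rose to 11.34 ± 0.45 (SD, n = 7) in tumours, against 9.70 ± 0.32 (SD, n = 5) in normal tongue (limma adjusted p = 2.88e-05). Il1b and Il1a belong to this list as well as to others. Tnf was at least 1.68-fold higher, and it was above background on no normal, so it passed the filter through the tumours alone. Stat3 and Jun had differences of 0.00 and were not called. A further probe of Stat3 gave 0.27 and passed the threshold as higher (limma adjusted p = 0.0265), and another gave 0.11 and did not. Over the 5 lists of receptors, annexins, intracellular partners, induced genes and regulators, 51 genes were measured, of which 31 were higher, 8 lower and 12 not called, against 32.5% of all genes higher and 23.6% lower.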

How the data were processed

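The authors deposited log2 signals for 25697 probes, 1 column per array, and these deposited values were used. Base 2 was inferred from their range. All arrays share a median of 6.56. Per the submitters' processing notes the tools were BeadStudio and Partek 6.6, and which step each did is not given in the sources used here. A second table with 24 columns of per-sample values was not used here, because its column names match no sample label.

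Values were taken out of log2, corrected with normexp (offset 50), quantile normalised and put back in log2. A probe counted as above background when it exceeded the upper 5% point of a normal curve fitted to the values below the mode of its array, and was kept when this held on at least 5 arrays, as for 15702 probes (61.1%). Where no array of a group was above background, the fold is a lower bound against that threshold. Probes took their gene from the platform annotation (23978 with a symbol, 1719 without; 23962 matched a gene identifier in RefSeq), and a gene with several probes was given by the brightest. Tumours and normals were compared with limma 3.58.1 in R 4.3.3 (two-sided, Benjamini-Hochberg over the kept probes, threshold 0.05), after a test on simulated data. Pairs were correlated over the 7 tumours with exact permutation tests in Python 3.11.15, adjusted over 10 pairs. The S100 genes, lists and pairs were chosen with earlier results of these data known. All 10 S100 genes are named, with the receptors, the annexins, up to 6 called genes per list by size of difference and the 5 closest by r to each of S100a8, S100a9, S100a1 and S100a14. Atp2a2, Cacybp, Sugt1, Stat3 and Jun were named after their values were seen. Alternatives were other scalings, offset 16, other filters, array weights, the mean over probes, a replicate block and leaving out arrays.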

Additional observations from a re-analysis of the deposited data

Results flagged for a closer look

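Of 108 groups of values examined for a piece far from the rest of its group, 11 held such a piece, where chance gives about 1 in 20. Normal 3 stood high for S100a9 (8.69, nearest 6.91), Il1b (8.29, nearest 6.90) and Cxcl1 (9.18, nearest 6.77). Tumour 2 stood low for S100a7a (10.84, nearest 11.86) and high for Alcam (7.58, nearest 7.13) and Fgf1 (8.16, nearest 6.92). Normal 1 stood low for Anxa2 (13.39, nearest 13.77) and Il1a (7.23, nearest 7.89) and high for Fgf1 (9.23, nearest 8.85) and Ttn (14.16, nearest 13.86). Normal 2 stood high in the mean of the fibroblast and matrix genes (10.41, nearest 9.99). Normal 1 and tumour 2 are the pieces with high salivary gland genes.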

How the results depend on the processing

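Over every alternative run, S100a8 kept a difference of 6.17 to 6.99, S100a9 of 6.94 to 7.98, S100a1 of −4.20 to −3.39, S100a11 of 1.08 to 1.60, S100a10 of 0.40 to 0.83 and S100a13 of −1.23 to −0.78. S100a9 was not measured when all 12 arrays had to be above background. Leaving out 1 array moved the 3 S100 genes that were not called by over 1.5 times: S100a4 lay between −0.29 (without normal 1) and −0.10 (without normal 5), S100a14 between 0.085 (without normal 1) and 0.26 (without tumour 2) and S100a16 between 0.12 (without normal 1) and 0.37 (without tumour 2). S100a4 (−0.55) passed the threshold as lower when centred on reference genes. Leaving out 1 array at a time gave 5 S100 genes higher and 2 lower, 29 to 31 partner genes higher and 7 to 8 lower. Of all 10787 genes these fits called 3202 to 3708 higher and 2383 to 2609 lower. The S100 counts are a description, since these genes were listed with the contrast known. Centring on reference genes gave 23 partner genes higher and 15 lower, against 31 and 8 in the fit reported. Requiring all 12 arrays above background gave 21 and 8, where 3089 of the 8700 genes kept were higher and 1962 lower. That centring turned Nptn (−0.20), Sugt1 (−0.19) and Cebpb (−0.069), while cyclic loess turned Nptn (−0.027). Centring on reference genes called 1183 genes higher and 5697 lower, against 3507 and 2544, and cyclic loess 2644 and 3071. The reference genes themselves had a median difference of 0.57, against 0.07 for all genes, and centring on them takes their own difference out of every gene. The pair of S100a11 and Anxa1 fell to r = 0.25 on the deposited values and 0.62 under cyclic loess. Without each tumour in turn r was 0.90 to 0.97 for S100a11 and Anxa1, 0.97 to 0.99 for S100a1 and muscle, 0.89 to 0.95 for S100a14 and S100a16 and −0.11 to 0.85 for S100a4 and fibroblast genes. The cause of these shifts was not tested. With the replicate number as a block, 5 S100 genes were higher and 2 lower, 28 partner genes higher and 8 lower, and 3140 and 2353 of all genes. The labels do not say whether same-numbered pieces share more than a number. Their deviations from the group means correlated at −0.372 to 0.0966. Differences in tissue content between pieces enter these values, so they cannot decide it. Rank correlations passed the threshold for 0 of 10 pairs (3 at an unadjusted p under 0.05) and Pearson correlations for 3. The brightness of S100a8 and S100a11 in tumours and the faintness of S100a9 in normals limit what their differences can show.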
